A study of Mus musculus with 13 samples.

Results

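The genes described here are 36 genes of the lysosome, listed by name, among 24015 gene symbols measured in mouse haematopoietic stem cells (HSCs). They encode 5 structural membrane proteins including Cd68, 10 cathepsins and other proteases, 7 glycosidases, 7 proteins of lipid handling and activation, 5 parts of the proton pump, and 1 ion channel with 1 transcription factor. The list was drawn up with differences between these libraries in view, so the levels below are a description. All 36 passed the filter on low counts, as did 12536 genes in all.

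Each library was made from 100 donor-derived HSCs taken from the bone marrow of mice that had received 1 HSC expressing Vwf, the gene of von Willebrand factor. All cells were of strain C57BL/6 and were sorted as LSKFlt3-CD150+CD48-CD45.2+Gata1-, that is, as stem cells of donor origin without the Gata1 signal. The groups are named for what the transplanted cell made over 16 weeks, namely P-restricted for PLT-HSC (3 libraries), PEM-restricted for PEM-HSC (6 libraries) and multilineage for MUL-HSC (4 libraries). The sources used here do not give the ages of donors and recipients, and the labels do not say which libraries share a recipient, so p-values speak only of the spread among these libraries, part of which may be technical.

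Lysosomes are acidic compartments in which proteins, glycans and lipids are broken down. A proton pump, the V-type ATPase, acidifies them, heavily glycosylated proteins such as LAMP1 and LAMP2 line their membrane, and soluble hydrolases are delivered from the Golgi by mannose 6-phosphate receptors. The transcription factor TFEB binds E-boxes in the promoters of many lysosomal genes, and lysosomal activity has been linked to the quiescence of HSCs. CD68 is a glycosylated membrane protein of late endosomes and lysosomes that is abundant in macrophages and widely used to mark them.

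The promoters are shown first because the E-box was found in part of the list and not in the window of Cd68. Promoter windows from 250 bases before to 50 after each annotated start were found for 30 of the 36 genes in RefSeq (GRCm38.p6). The letters CACGTG, which read the same on both strands, were searched. The first 2 sequences are the 100 bases before the start of Cd68 (chr11:69666171-69666270, minus strand) and of Lamp1 (chr8:13159061-13159160, plus strand). The last 3 are sites of 30 bases in Mcoln1 (chr8:3500462-3500491, plus strand), Glb1 (chr9:114401018-114401047, plus strand) and Lgmn (chr12:102439124-102439153, minus strand). All are written 5′ to 3′ on the gene's strand, with CACGTG in capitals.
Cd68: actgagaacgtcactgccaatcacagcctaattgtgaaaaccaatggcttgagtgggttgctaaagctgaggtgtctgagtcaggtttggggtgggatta
Lamp1: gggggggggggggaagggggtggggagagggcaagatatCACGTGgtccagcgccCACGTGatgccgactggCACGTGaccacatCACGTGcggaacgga
Mcoln1: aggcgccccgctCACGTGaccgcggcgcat
Glb1: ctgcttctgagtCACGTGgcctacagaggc
Lgmn: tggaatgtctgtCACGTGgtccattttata

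Lamp1 holds 4 copies, which begin at bases -61, -45, -28 and -15 from the start, and the 300-base window of Cd68 holds none. Mcoln1 has copies at -71 and -45, of which the second is printed, Glb1 has 1 at -48, and Lgmn has 1 at -49 of the downstream one of its 2 annotated starts. The motif was found in 11 of the 30 genes (36.67%), in 27 of 126 other lysosome pathway genes with a promoter window (21.43%), and in 1112 of 9427 tested genes (11.8%). Over all 27025 genes of the promoter table the share was 8.093%. The longer form, GTCACGTG or its reverse complement CACGTGAC, which overlaps the short one, was in 8 of 30 genes (26.67%) against 4.837% of tested genes. The median GC content of the windows was 56% for the list, 60.67% for tested genes and 52.67% for the whole promoter table.

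Cd68 and Lgmn had the list's largest fold changes against multilineage HSCs, Cd68 with the smaller standard error. In MUL-HSC, its level was 11.4, 11.96, 19.7 and 13.1 CPM (counts scaled to a library total of 1000000) in replicates 1 to 4. In PEM-HSC the lowest, median and highest libraries stood at 20.6, 51.5 and 240 CPM, and the PLT-HSC libraries at 185, 159 and 26.3 CPM. Every PEM-HSC and PLT-HSC library thus lay above every MUL-HSC library, but the lowest of each, at 20.6 and 26.3 CPM, was close to the highest MUL-HSC library. PEM-HSC replicate 3 and PLT-HSC replicates 1 and 2 stood far above the other 10 libraries.

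The mean level of Cd68 was 14.0 ± 3.86 CPM (SD, n = 4) for MUL-HSC, 80.0 ± 81.2 CPM (n = 6) for PEM-HSC and 123 ± 85.03 CPM (n = 3) for PLT-HSC. These means are 5.70-fold higher in PEM-HSC and 8.78-fold higher in PLT-HSC than in MUL-HSC. The fitted log2 fold change against MUL-HSC was 3.18 (SE 0.74) in PLT-HSC and 2.49 (SE 0.67) in PEM-HSC, and it was 0.69 (SE 0.65) between PLT-HSC and PEM-HSC. Both values against MUL-HSC use the same 4 MUL-HSC libraries. Of 12536 tested genes, 379 had a higher log2 fold change than Cd68 in PLT-HSC against MUL-HSC, and 467 in PEM-HSC against MUL-HSC. A smaller p-value in edgeR was found for 35 and 40 genes in the same order. Without PEM-HSC replicate 3 the PEM-HSC value was 1.76. In such bulk libraries, a few cells with much Cd68 and many cells with more of it cannot be told apart, nor can fewer cells of a type and less RNA per cell.

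**Figure D1:**
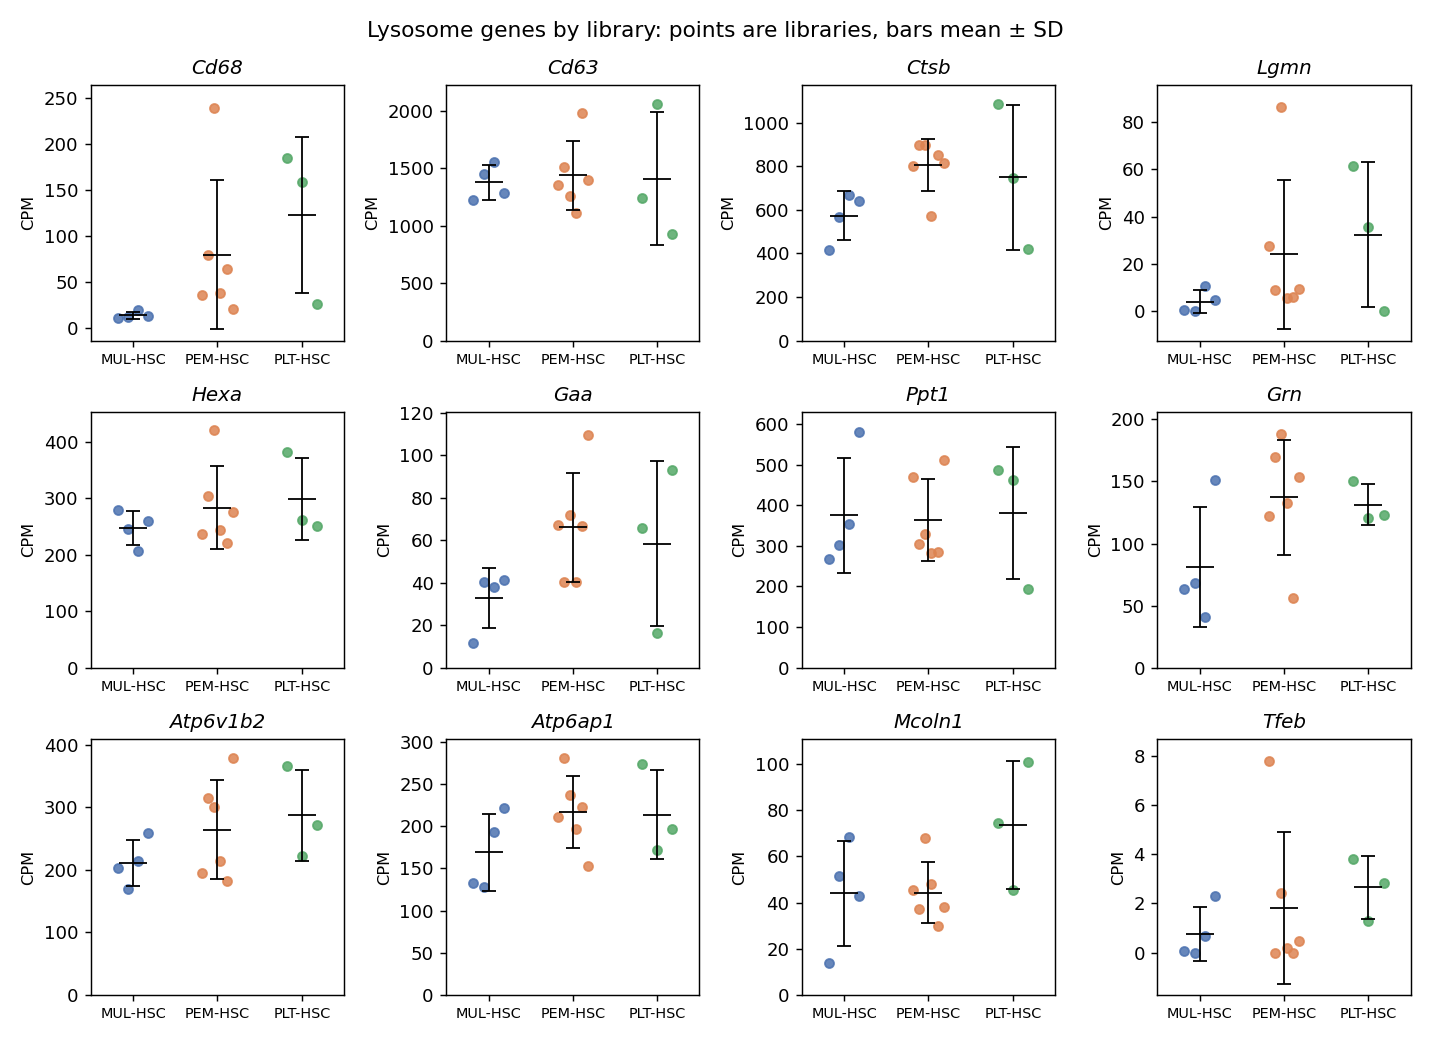
Levels in CPM (vertical axes, linear) of 12 lysosome genes in MUL-HSC, PEM-HSC and PLT-HSC: points are libraries and black bars give the mean ± SD. Cd68 in PEM-HSC and PLT-HSC starts just above the MUL-HSC libraries, from 20.6 and 26.3 CPM, while for the other 11 genes the groups overlap.

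Cd68 and Lgmn were high in the same libraries. Lgmn encodes legumain, an asparaginyl endopeptidase that also processes other lysosomal proteases. It stood at 0.315, 0, 10.6 and 4.71 CPM in MUL-HSC, at 5.34, 8.98 and 86.6 CPM (lowest, median, highest) in PEM-HSC, and at 61.6, 35.5 and 0 CPM in PLT-HSC. PEM-HSC replicate 3 and PLT-HSC replicates 1 and 2 were its 3 highest libraries, as for Cd68, whereas PLT-HSC replicate 3 had no Lgmn count. A count of 0 there allows up to 3 counts, or 0.0925 CPM, by counting error alone. Lgmn was the 1 gene of the other 35 in the list with these 3 libraries on top (2.86%), as were 0 of 149 other lysosome pathway genes and 39 of 12535 tested genes other than Cd68 (0.311%). The 3 libraries were picked from the values of Cd68, and the list with differences between these libraries in view. These shares are therefore a description, and 1 gene shows no excess in the list.

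The fitted log2 fold change of Lgmn was 3.13 (SE 1.70) in PLT-HSC and 2.62 (SE 1.54) in PEM-HSC against MUL-HSC, and the groups overlapped. Leaving out 1 library, it ran from 2.31 to 4.34 in PLT-HSC and from 1.55, without PEM-HSC replicate 3, to 3.84 in PEM-HSC. Its mean level by group was 3.91 ± 4.97 CPM (MUL-HSC), 23.9 ± 31.8 CPM (PEM-HSC) and 32.4 ± 30.9 CPM (PLT-HSC). Within each group the SD was therefore close to the mean or above it.

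The label of the cells and the markers of macrophages were checked beside these results. All 12 HSC markers, among them Procr, Kit, Mecom and Slamf1, were above the floor of 3 counts in each of the 13 libraries. Kit, Ly6a and Slamf1 encode proteins used in the sort, and the floor is low, so detection alone says little about the label. Like Cd68, the summed level of the 12 HSC markers lay wholly lower in MUL-HSC than in the other groups. It spanned 2032 to 2972 CPM over the MUL-HSC, 3000 to 3438 CPM over the PEM-HSC and 3280 to 4100 CPM over the PLT-HSC libraries. Ctnnal1, Mecom and Mllt3 lay wholly higher in PLT-HSC than in MUL-HSC, where 3.75% of tested genes did. Ctnnal1 was called there (log2 fold change 2.93, edgeR adjusted p = 0.0487). The summed level of 20 macrophage markers spanned 50.2 to 104 CPM over the MUL-HSC, 75.1 to 228 CPM over the PEM-HSC and 95.6 to 110 CPM over the PLT-HSC libraries. PEM-HSC replicate 3, the highest library for Cd68 and Lgmn, was also the highest for this sum and had 15 of the 20 markers above the floor, against 5 to 10 in the other libraries. Adgre1 (Emr1 in the table), which encodes F4/80, had 287 counts (12.4 CPM) there, 110 counts (3.73 CPM) in PLT-HSC replicate 2, 2 counts in PLT-HSC replicate 3 and 0 in the other 10 libraries.

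Csf1r, the macrophage colony-stimulating factor receptor, had at most 1 count in any library, Marco had 0 in all of them, and Siglec1 never passed the floor. The most abundant of the macrophage markers, Hmox1, is a heme oxygenase that many cell types express. PLT-HSC replicate 1, the second highest library for Cd68, had a marker sum of 109 CPM and no Adgre1 count. It had the highest Mrc1, a mannose receptor, at 19.4 CPM (at most 4.44 CPM elsewhere). Mertk stood there at 16.3 CPM and Vsig4 at 6.20 CPM, and both of these were at 0 in all MUL-HSC libraries. Mertk was higher in PLT-HSC replicate 3, at 19.6 CPM, and at 0 in PLT-HSC replicate 2. Other markers of the list went the other way. Cd163 lay wholly lower in PLT-HSC (2.81 to 3.41 CPM) than in MUL-HSC (5.68 to 15.9 CPM), where 3.04% of tested genes did. Axl averaged 16.2, 23.3 and 11.2 CPM in MUL-HSC, PEM-HSC and PLT-HSC, and Spic 14.1, 12.5 and 13.7 CPM. C1qa, Cd5l, Fcgr1, Timd4 and Vcam1 were at 0 in PLT-HSC replicate 1, where C1qb and C1qc stood at 2.14 and 2.07 CPM. PLT-HSC replicate 3, among the lowest outside MUL-HSC for Cd68, had a sum of 110 CPM. The part of HSC and macrophage markers in the levels of Cd68 and Lgmn was not tested.

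**Figure D2:**
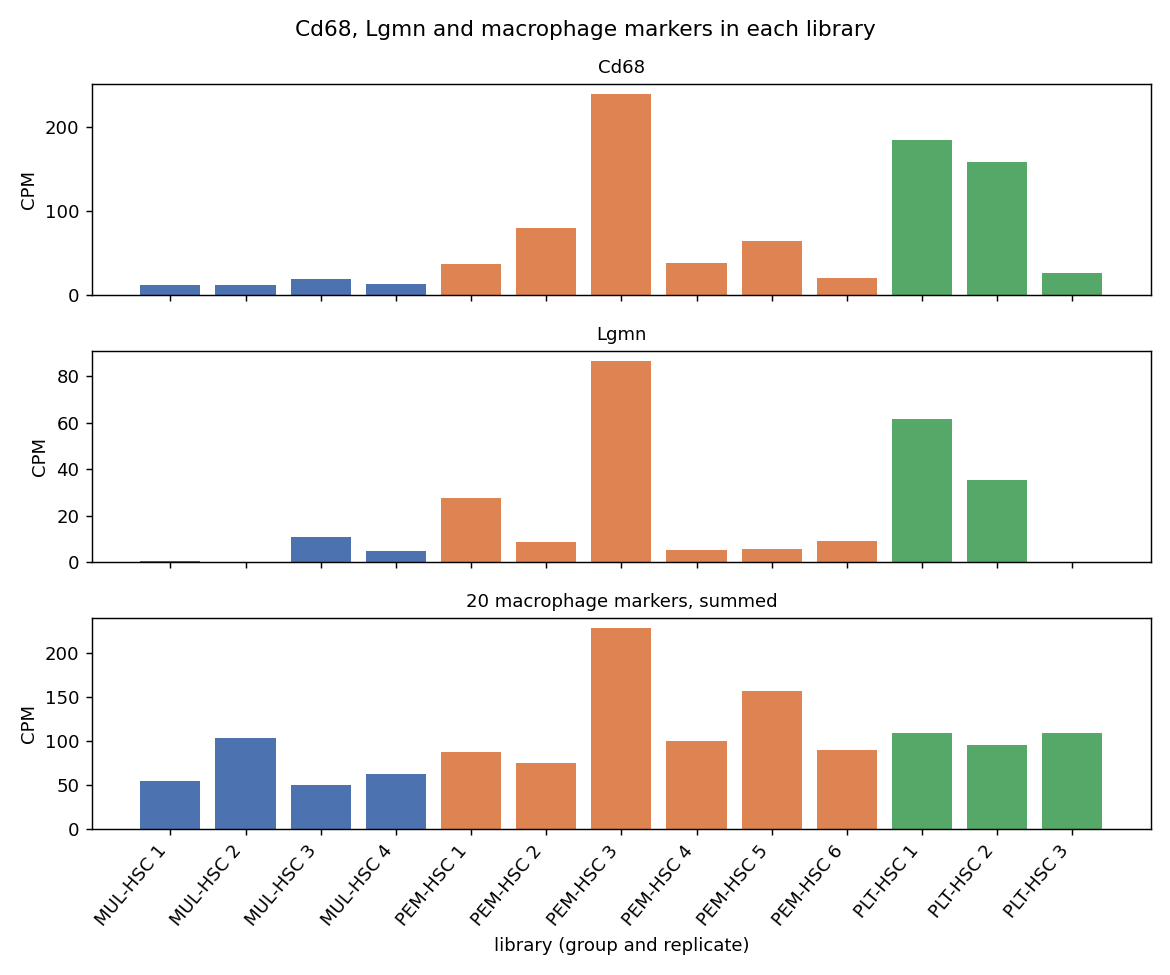
CPM of Cd68 (top), Lgmn (middle) and the sum of 20 macrophage markers (bottom) in each of the 13 libraries, in blue for MUL-HSC, orange for PEM-HSC and green for PLT-HSC. PEM-HSC replicate 3 is the highest library in all 3 panels, at 240, 86.6 and 228 CPM, while PLT-HSC replicates 1 and 2 are high in the upper panels only.

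Over the whole list, most genes had small differences between groups. Against MUL-HSC, 26 of 36 had a positive fold change in PLT-HSC and 26 of 36 in PEM-HSC, and 22 of 36 were higher in PLT-HSC than in PEM-HSC. Among all tested genes the positive shares were 52.4%, 50.7% and 51.5% in the same order. The median log2 fold change of the list was 0.27, 0.17 and 0.11, beside 0.04, 0.01 and 0.02 over all tested genes. More than 1 log2 unit separated the groups for 4 genes in PLT-HSC against MUL-HSC (Cd68, Lgmn and Tfeb higher, Ctss lower), 3 in PEM-HSC against MUL-HSC (Cd68, Lgmn and Tfeb higher) and 1 in PLT-HSC against PEM-HSC (Ctss lower). These are 11.1%, 8.33% and 2.78% of the list, beside 23.1%, 17.5% and 17.5% of all tested genes.

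None of the 36 was called by the quasi-likelihood test of edgeR at an adjusted p under 0.05, in any of the 3 comparisons. The share of all tested genes called was 0.0479% in PLT-HSC against MUL-HSC (0.0399% higher), 0.00798% in PEM-HSC against MUL-HSC and 0% in PLT-HSC against PEM-HSC. At an unadjusted p under 0.05 the list had 1 gene in the first comparison (Cd68), where 7.37% of tested genes passed, 3 in the second (Cd68, Gaa and Grn), where 5.93% passed, and 0 in the third, where 3.73% passed. DESeq2 called Cd68 in both comparisons with MUL-HSC and no other gene of the list, and limma voom called 0. Over all 12536 tested genes, DESeq2 called 249 in PLT-HSC against MUL-HSC and 175 in PEM-HSC against MUL-HSC.

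Groups that did not overlap were rare in the list too. Cd68 was the 1 gene of 36 whose libraries were all higher than in MUL-HSC, in PLT-HSC, where 3.75% of tested genes were, and in PEM-HSC, where 0.862% were. Ctss, which encodes cathepsin S, a protease that trims the MHC class II invariant chain, was the 1 gene that lay wholly lower in PLT-HSC than in MUL-HSC, where 3.04% of tested genes did. No gene of the list lay wholly lower in PEM-HSC than in MUL-HSC, where 0.630% of tested genes did. PLT-HSC and PEM-HSC overlapped for all 36 genes, while 1.10% of tested genes lay wholly higher and 1.06% wholly lower in PLT-HSC. The libraries of Ctss stood at 16.5, 32.6, 12.8 and 19.3 CPM in MUL-HSC and at 0, 8.95 and 3.73 CPM in PLT-HSC. PEM-HSC spanned both, with a lowest value of 0, a median of 10.2 and a highest value of 26.0 CPM. The log2 fold change of Ctss was -2.23 (SE 1.62) in PLT-HSC and -0.84 (SE 1.25) in PEM-HSC against MUL-HSC.

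**Figure D3:**
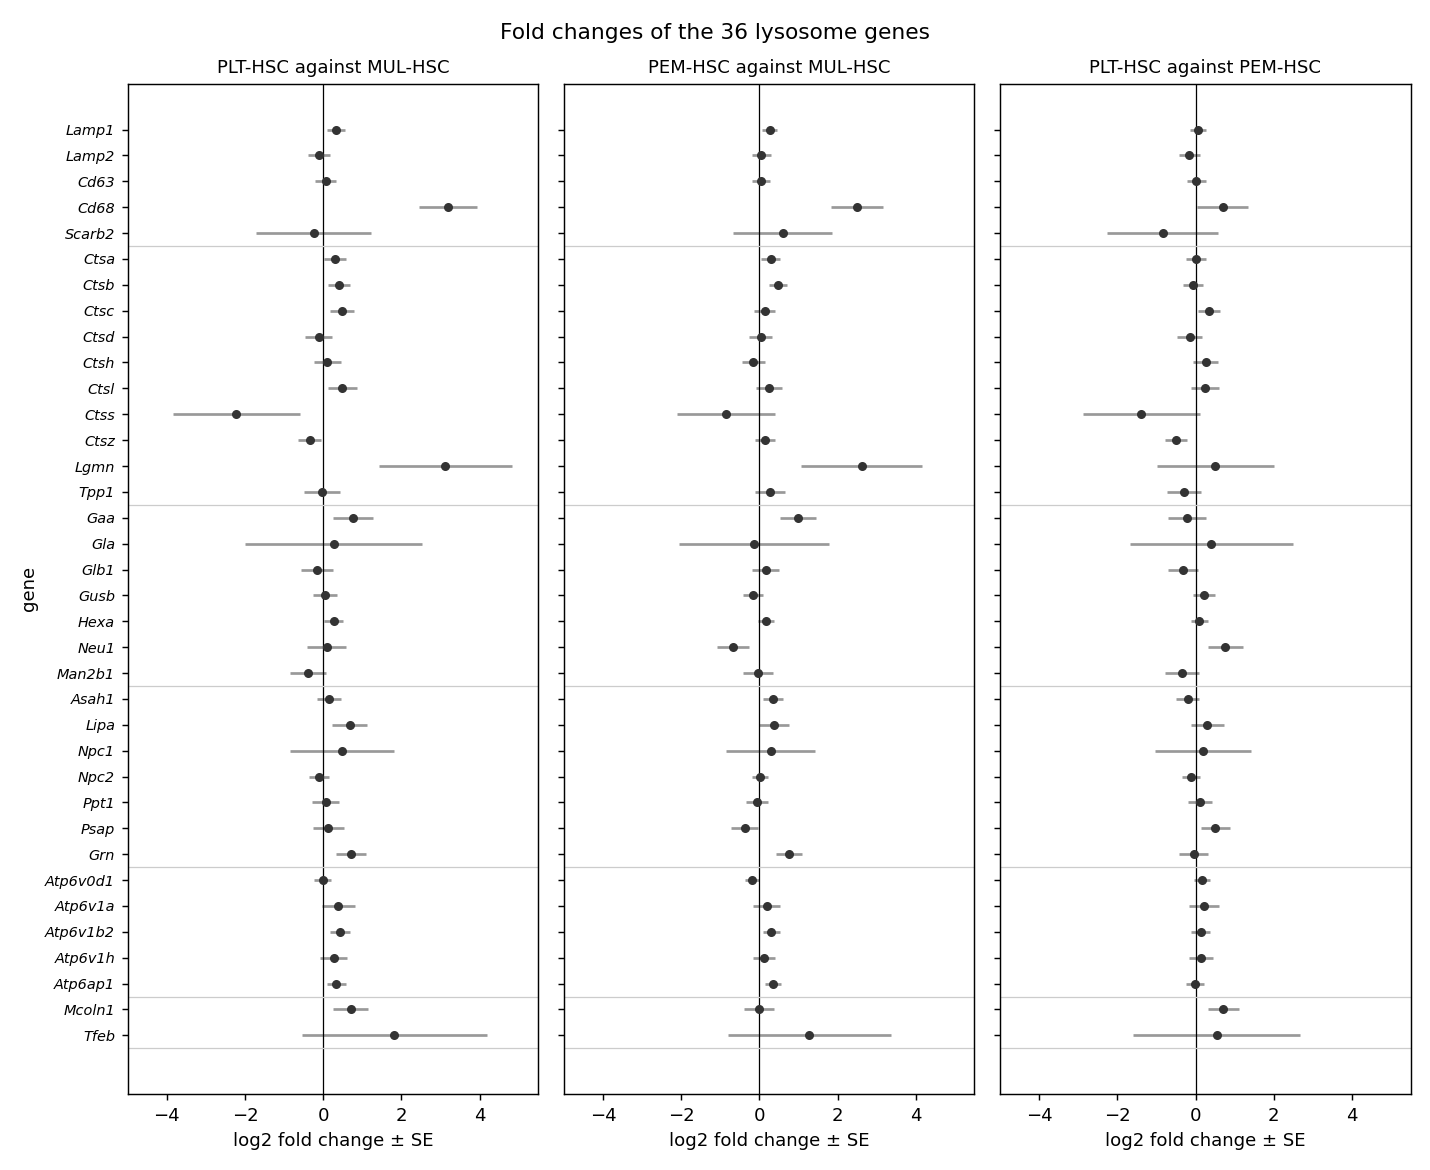
Fitted log2 fold change ± SE (horizontal axes) of the 36 genes (vertical axis, grouped by role) in the 3 comparisons named above the panels. Most points lie close to 0, and Cd68 stands at 3.18 and 2.49 in the panels against MUL-HSC. Tfeb, Gla and Lgmn, each with 0 counts in some libraries, have wide bars.

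Among the structural membrane proteins, Cd63 was the most abundant. It encodes a tetraspanin of late endosomes and exosomes and made up 13.8% to 25.7% of the CPM of the whole list in each library. Its level was 1226, 1448, 1556 and 1281 CPM in MUL-HSC, 1113, 1374 and 1983 CPM (lowest, median, highest) in PEM-HSC, and for PLT-HSC 1241, 2056 and 930 CPM. The groups overlapped, PLT-HSC held both the highest and the lowest of the 13 libraries, and the log2 fold changes against MUL-HSC were 0.06 (SE 0.27) in PLT-HSC and 0.04 (SE 0.23) in PEM-HSC. Without PLT-HSC replicate 2 the first of these was -0.41.

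Lamp1 and Lamp2, the main glycoproteins of the lysosomal membrane, had group means of 260, 314 and 326 CPM (Lamp1) and of 543, 568 and 496 CPM (Lamp2) in the order MUL-HSC, PEM-HSC, PLT-HSC. For both, these differences were smaller than the largest SD of the groups. Scarb2, which encodes LIMP-2, the receptor that carries glucocerebrosidase to lysosomes, was above 16 CPM in 10 libraries and under 1 CPM in 1 library of each group. The median log2 fold change of the 5 membrane proteins was 0.06 in PLT-HSC and 0.26 in PEM-HSC against MUL-HSC.

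Ctsb, the cysteine protease cathepsin B, was the most abundant of the 10 proteases in CPM. It stood at 417, 570, 668 and 643 CPM in MUL-HSC, at 574, 834 and 899 CPM (lowest, median, highest) in PEM-HSC, and at 1085, 745 and 420 CPM in PLT-HSC. In PEM-HSC, 5 libraries lay above all MUL-HSC libraries and replicate 4 lay among them, while PLT-HSC spanned nearly the whole range. The log2 fold change against MUL-HSC was 0.47 (SE 0.24) in PEM-HSC and 0.41 (SE 0.28) in PLT-HSC, and the latter was 0.03 without PLT-HSC replicate 1 and 0.73 without replicate 3.

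The other cathepsins and Tpp1 are given by group means. Ctsc (cathepsin C, which activates granule serine proteases) averaged 316, 351 and 428 CPM in MUL-HSC, PEM-HSC and PLT-HSC, and Ctsl (cathepsin L) 132, 159 and 180 CPM. Ctsz, the carboxypeptidase cathepsin Z, averaged 245, 276 and 189 CPM, and Ctsd, the aspartic protease cathepsin D, 227, 232 and 210 CPM. Ctsa, the carboxypeptidase that protects beta-galactosidase and neuraminidase, averaged 145, 180 and 180 CPM. Tpp1 (tripeptidyl peptidase) averaged 117, 142 and 117 CPM, and Ctsh (cathepsin H) 55.4, 50.6 and 58.9 CPM. For each of these 7, the groups overlapped in all 3 comparisons. The median of the 10 proteases was 0.20 in PLT-HSC and 0.20 in PEM-HSC against MUL-HSC on the log2 scale.

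Glycosidases release sugars from glycoproteins and glycolipids, and Hexa, the alpha subunit of beta-hexosaminidase, was the most abundant of the 7. Its libraries stood at 278, 245, 207 and 260 CPM in MUL-HSC, at 220, 260 and 420 CPM (lowest, median, highest) in PEM-HSC, and at 382, 262 and 250 CPM in PLT-HSC. PEM-HSC replicate 3 and PLT-HSC replicate 1 were the 2 highest libraries and the rest overlapped, with log2 fold changes of 0.17 (SE 0.20) in PEM-HSC and 0.26 (SE 0.24) in PLT-HSC.

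Gaa, the acid alpha-glucosidase that degrades glycogen, differed most among the glycosidases. It stood at 11.8, 40.1, 38.1 and 41.4 CPM in MUL-HSC, at 40.5, 66.8 and 110 CPM (lowest, median, highest) in PEM-HSC, and at 65.9, 16.4 and 92.9 CPM in PLT-HSC. MUL-HSC replicate 1 and PLT-HSC replicate 2 were low within their groups, and the 2 lowest PEM-HSC libraries lay among 3 of MUL-HSC. The log2 fold change was 0.99 (SE 0.45) in PEM-HSC and 0.77 (SE 0.51) in PLT-HSC, and without MUL-HSC replicate 1 the PEM-HSC value was 0.72.

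The libraries of the 5 other glycosidases overlapped between groups. Glb1 (beta-galactosidase) averaged 109, 124 and 98.3 CPM in MUL-HSC, PEM-HSC and PLT-HSC, Gusb (beta-glucuronidase) 135, 122 and 140 CPM, and Man2b1 (alpha-mannosidase) 55.6, 55.04 and 42.2 CPM. Neu1, the lysosomal sialidase, averaged 28.6, 18.3 and 30.2 CPM, with a log2 fold change of -0.67 (SE 0.42) in PEM-HSC against MUL-HSC. Gla (alpha-galactosidase A) had 0 counts in 3 libraries and 1 count in each of 2 more, and reached 22.4 CPM in PLT-HSC replicate 1. The median of the 7 glycosidases was 0.09 in PLT-HSC and -0.04 in PEM-HSC.

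Of the genes for lipid handling and activation, Ppt1, which removes palmitate from proteins, was the most abundant. It stood at 266, 301, 354 and 580 CPM in MUL-HSC, at 283, 318 and 510 CPM (lowest, median, highest) in PEM-HSC, and at 487, 462 and 193 CPM in PLT-HSC. The ranges overlapped almost entirely, and the log2 fold changes were 0.06 (SE 0.34) in PLT-HSC and -0.05 (SE 0.28) in PEM-HSC.

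Grn encodes progranulin, a secreted protein that is delivered to lysosomes and cut there into granulins. Its libraries stood at 63.3, 68.3, 40.5 and 151 CPM in MUL-HSC, at 56.3, 143 and 188 CPM (lowest, median, highest) in PEM-HSC, and at 150, 121 and 123 CPM in PLT-HSC. The 3 PLT-HSC libraries lay close together and above 3 of the 4 MUL-HSC libraries, with MUL-HSC replicate 4 just above them. The log2 fold change was 0.71 (SE 0.39) in PLT-HSC and 0.76 (SE 0.34) in PEM-HSC, and without MUL-HSC replicate 4 these were 1.16 and 1.22.

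Lipa, the acid lipase that hydrolyses cholesteryl esters, averaged 65.1, 85.9 and 103 CPM in MUL-HSC, PEM-HSC and PLT-HSC. Asah1, the acid ceramidase, averaged 300, 385 and 325 CPM, and Npc2, which passes cholesterol to NPC1, 200, 205 and 186 CPM. Psap, the precursor of the saposins that assist glycosphingolipid hydrolases, averaged 58.7, 45.9 and 64.9 CPM. Npc1 ran from 0.151 to 33.1 CPM within PEM-HSC alone. For each of these 5 genes the groups overlapped. The median of the 7 was 0.15 in PLT-HSC and 0.29 in PEM-HSC.

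The 5 proton pump genes encode parts of the V-type ATPase, which uses ATP to move protons into the lysosome. Atp6v1b2, a nucleotide-binding subunit of the cytosolic sector, stood at 203, 170, 214 and 258 CPM in MUL-HSC, at 182, 257 and 379 CPM (lowest, median, highest) in PEM-HSC, and at 367, 223 and 272 CPM in PLT-HSC. Atp6ap1, an accessory subunit, stood at 133, 129, 193 and 222 CPM in MUL-HSC, at 153, 217 and 281 CPM in PEM-HSC, and at 273, 171 and 197 CPM in PLT-HSC. Both had a positive log2 fold change, of 0.44 (SE 0.26) and 0.34 (SE 0.25) in PLT-HSC and of 0.31 (SE 0.22) and 0.35 (SE 0.21) in PEM-HSC, with overlapping libraries. Atp6v0d1 averaged 240, 215 and 240 CPM in MUL-HSC, PEM-HSC and PLT-HSC, Atp6v1a, the catalytic subunit, 87.3, 100 and 118 CPM, and Atp6v1h 172, 192 and 203 CPM. The median of the 5 was 0.34 in PLT-HSC and 0.18 in PEM-HSC.

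Mcoln1 encodes TRPML1, the channel that releases calcium from lysosomes. It stood at 13.9, 51.4, 68.3 and 42.7 CPM in MUL-HSC, at 29.7, 41.6 and 68.0 CPM (lowest, median, highest) in PEM-HSC, and at 74.4, 45.5 and 101 CPM in PLT-HSC. PLT-HSC held the 2 highest libraries but its replicate 2 lay within MUL-HSC, and the log2 fold change was 0.70 (SE 0.45) in PLT-HSC and -0.01 (SE 0.38) in PEM-HSC. Tfeb stood at 0.0451, 0, 0.672 and 2.32 CPM in MUL-HSC, at 0, 0.316 and 7.82 CPM in PEM-HSC, and at 3.83, 1.29 and 2.84 CPM in PLT-HSC. It had 0 counts in 3 libraries and at most 219 counts in any, and its log2 fold changes of 1.82 and 1.28 had standard errors of 2.36 and 2.08.

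Levels per kilobase of the longest transcript in the GENCODE annotation of GRCm38 allow genes to be ranked. Cd63 was first with 1269 CPM per kb as the mean of the 3 group means, followed by Ctsz with 164, Ppt1 with 157, Ctsb with 150 and Lamp2 with 149 CPM per kb. Cd68 was 16th with 58.9 CPM per kb, with 11.4 for MUL-HSC, 65.0 for PEM-HSC and 100.2 for PLT-HSC. The last were Npc1 with 2.26, Gla with 2.03 and Tfeb with 0.743 CPM per kb. Exons of another annotated gene overlap those of 10 of the 36 genes, among them Ctsb, Ctsd and Lamp1, and the strand setting of the counting was not given, so reads there may be shared. Cd68, Lgmn and Cd63 have no such overlap.

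Variation between libraries was largest for genes with low levels. The coefficient of variation over the 13 libraries had a median of 34.3% over the list and 52.8% over all tested genes. Among genes with a mean of at least 100 CPM it was 27.2% for 22 genes of the list and 23.0% for 2541 tested genes. The steadiest were Atp6v0d1 (18.4%), Npc2 (18.9%) and Lamp1 (20.7%), and the most variable Lgmn (136%), Tfeb (134%), Gla (112%) and Cd68 (109%). Of these 4, Cd68 alone had counts above the floor in all libraries, with at least 253 counts in each.

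**Figure D4:**
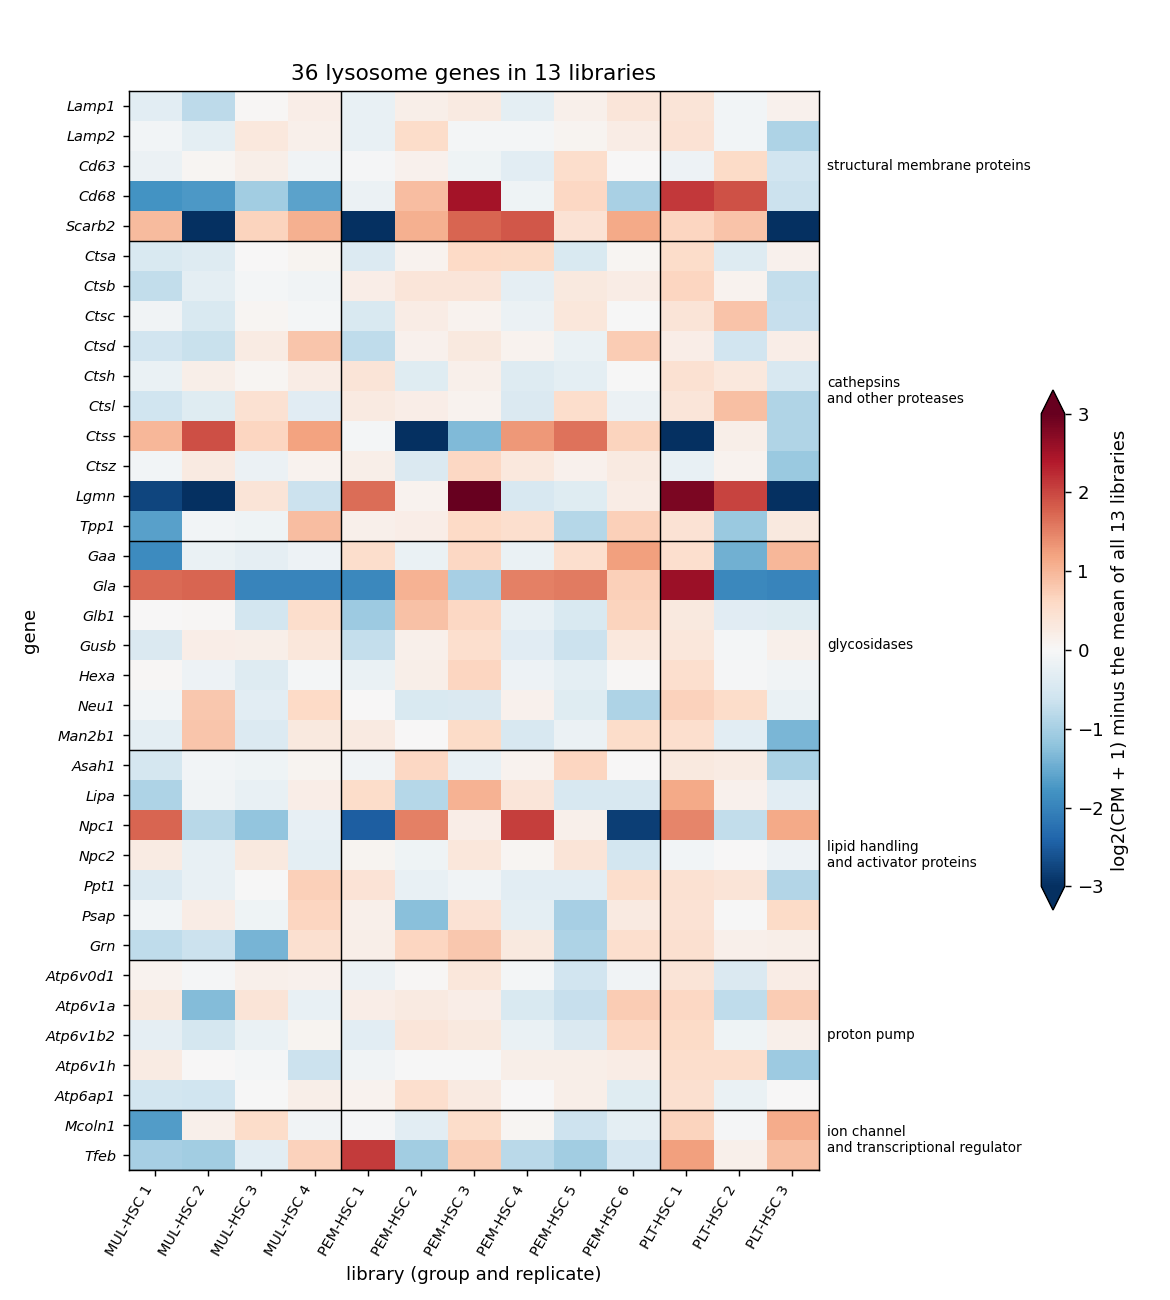
Level of each of the 36 genes (vertical axis, grouped by role) in the 13 libraries (horizontal axis) as log2(CPM + 1) minus the gene's mean over all libraries, with red above and blue below that mean. Most genes are pale, Cd68 is blue in all 4 MUL-HSC libraries, and PLT-HSC replicate 3 is blue for many genes that are red in PLT-HSC replicate 1.

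The 3 PLT-HSC libraries differed from each other over the list. Replicate 1 was the highest of them for 23 of 36 genes, where it was the highest for 31.3% of all tested genes. Replicate 3 was the lowest for 20 of 36, against 24.2% of tested genes, and replicate 2 was the lowest for 15, against 39.8% of tested genes. The summed level of the list was 9014 CPM in replicate 1, 8131 CPM in replicate 2 and 5469 CPM in replicate 3, which were the highest and the lowest sums of the 13 libraries for replicates 1 and 3. By group the sum averaged 6677 ± 810 CPM (MUL-HSC), 7602 ± 751 CPM (PEM-HSC) and 7538 ± 1846 CPM (PLT-HSC).

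Set against the range of the MUL-HSC libraries, PLT-HSC replicate 1 had 20 genes above it and 2 below, PEM-HSC replicate 3 had 19 above and 2 below, and PLT-HSC replicate 3 had 8 above and 12 below. For all tested genes the shares above and below were 22.9% and 19.5%, 22.5% and 16.9%, and 29.5% and 14.2% in these libraries. The median of the list on the log2 scale moved with these libraries. For PLT-HSC against MUL-HSC it was 0.02 without PLT-HSC replicate 1 and 0.39 without replicate 3. Against PEM-HSC it was -0.17 and 0.19, so its direction turned with replicate 1.

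Fold changes of genes with and without an E-box in the promoter window are given side by side, with no test. Between PLT-HSC and MUL-HSC the log2 fold change had a median of 0.33 for the 11 genes with CACGTG and 0.06 for the 19 without it. In PEM-HSC against MUL-HSC the medians were 0.18 and 0.14, and in PLT-HSC against PEM-HSC 0.17 and 0.02. Lgmn, with the site printed above at 1 of its 2 starts, stood at 3.13 (SE 1.70) in PLT-HSC and 2.62 (SE 1.54) in PEM-HSC. With limma voom these values were 1.59 and 4.09. Cd68, without a site, stood at 3.18 (SE 0.74) and 2.49 (SE 0.67). Whether the motif bears on these fold changes was not tested.

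Other genes of the lysosome were taken from 6 lists of 158 genes in all, of which 149 were tested. None was called by edgeR in any of the 3 comparisons. At an unadjusted p under 0.05, 8 passed in PLT-HSC against MUL-HSC (6 higher, 2 lower), 9 in PEM-HSC against MUL-HSC (8 higher, 1 lower) and 3 in PLT-HSC against PEM-HSC (1 higher, 2 lower), and the shares, 5.37%, 6.04% and 2.01%, were close to or below those of all tested genes. Positive fold changes numbered 83, 80 and 84 of 149, with medians of 0.08, 0.04 and 0.04.

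Prcp, a lysosomal carboxypeptidase that cleaves after proline, came closest to the threshold. It stood at 52.0, 56.2, 94.6 and 65.9 CPM in MUL-HSC, at 79.0, 149 and 180 CPM (lowest, median, highest) in PEM-HSC, and at 215, 139 and 230 CPM in PLT-HSC. All PLT-HSC libraries lay above all MUL-HSC libraries, as for 3.75% of tested genes, and PEM-HSC overlapped MUL-HSC through replicate 4. Acp2 and Acp5, of the same list of hydrolases, also lay wholly higher in PLT-HSC than in MUL-HSC. The log2 fold change was 1.51 (SE 0.30, edgeR adjusted p = 0.0911) in PLT-HSC and 1.03 (SE 0.26, edgeR adjusted p = 0.51) in PEM-HSC against MUL-HSC. Without MUL-HSC replicate 3 it was called in PLT-HSC (1.73, edgeR adjusted p = 0.0494).

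Fuca1, the alpha-fucosidase, had another pattern. Its group means were 100 ± 16.8 CPM (MUL-HSC), 157 ± 16.7 CPM (PEM-HSC) and 94.8 ± 17.2 CPM (PLT-HSC). All 6 PEM-HSC libraries, from 138 to 176 CPM, lay above all libraries of the other groups, and it was not called (log2 fold change 0.63 against MUL-HSC, SE 0.19, edgeR adjusted p = 0.598). Sqstm1, the autophagy receptor p62, averaged 60.7, 97.1 and 125 CPM in MUL-HSC, PEM-HSC and PLT-HSC, with overlapping libraries and a log2 fold change of 1.02 for PLT-HSC over MUL-HSC (SE 0.37, edgeR adjusted p = 0.601).

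The most abundant genes of the other lists were named for their level alone. Map1lc3b and Gabarap, which coat autophagosomes, had means of 972, 977 and 994 CPM and of 305, 288 and 299 CPM in the order MUL-HSC, PEM-HSC, PLT-HSC. The pump subunits Atp6v0e and Atp6v0b had means of 616, 565 and 603 CPM and of 363, 471 and 372 CPM in that order. M6pr, a mannose 6-phosphate receptor, and Ap1m1, an adaptor subunit of the same route, had means of 351, 426 and 422 CPM and of 285, 320 and 250.5 CPM. None of these 6 was called.

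In the list of other hydrolases, Ctso and Gm2a, the latter an activator protein, had means of 251, 235 and 282 CPM and of 209, 155 and 134 CPM in the same order. Cd164 and Laptm5, both membrane proteins, had means of 353, 308 and 272 CPM and of 288, 279 and 338 CPM. Rheb, which activates mTORC1 at the lysosome, and Lamtor5, of the complex that anchors it, had means of 309, 244 and 254 CPM and of 248, 246 and 241 CPM. None of these 6 was called either. By list, the highest median on the log2 scale for PLT-HSC against MUL-HSC was 0.25, for 29 autophagy genes with 20 positive, and in PEM-HSC against MUL-HSC it was 0.12 for the same list.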

How the data were processed

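Polyadenylated RNA was converted to cDNA by Smart-seq+ and libraries were built with Nextera XT, per the labels' protocols. The authors deposited raw read counts per gene symbol. Trimmomatic, FastQC, STAR, featureCounts and the mouse build mm9 are named in the submitters' processing notes, with versions, settings and strand mode not given in the sources used here. No molecular identifiers are labelled, so counts include PCR copies and floors cover counting error only. The table holds 24015 genes and 92 ERCC rows, 0.0191% to 0.0612% of a library's gene counts, which were left out. Library totals over genes spanned 16371921 to 41367057 counts (MUL-HSC), 22913695 to 28013676 (PEM-HSC) and 29017378 to 32437607 (PLT-HSC), so that 3 counts equal 0.0725 to 0.183 CPM. Replicates differed by more than counting noise (chi-square divided by its degrees of freedom at least 163, on genes with 20 counts or more). Because counts include PCR copies, this does not show that the libraries are independent. Each library was treated as 1 sample.

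CPM is the count divided by the library's gene counts. edgeR 4.0.16 in R 4.3.3 was run on 12536 genes kept by filterByExpr, with TMM scaling and a robust quasi-likelihood fit of all 13 libraries with a term per group and no replicate block. P-values were Benjamini-Hochberg adjusted over all tested genes and called under 0.05. Fold changes are fitted log2 values with their standard error (SE). The biological coefficient of variation was 0.993 (common) and 0.624 (median gene), and the fit was tested on simulated data. Alternatives were DESeq2 1.42.0, limma voom 3.58.1, other scalings and filters, no robust estimation, the replicate block, detected genes as a covariate, only 2 groups, and each library left out.

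The members and lists were chosen with earlier results of these data known. The genes given by library are, for each role, the one with the highest CPM and the one with the largest fold change in each comparison with MUL-HSC. Ctss was chosen after its values were seen. Of the other lysosome genes, those with the highest CPM in each list and the smallest p-values were named. Markers of 7 further cell types are summed in the closing section, and 1 other list is not reported here. Promoters, transcript lengths and exons are from GRCm38 annotations and not from the build of the counts. No protein sequence was used here.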

Additional observations from a re-analysis of the deposited data

Results flagged for a closer look

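Of 72 sets of values checked (36 genes in PEM-HSC and in MUL-HSC), 6 (8.33%) had 1 library far from the rest by Dixon's test. Its rate of about 1 in 20 by chance holds for independent, normally distributed values. The CPM values include values at 0 and the genes share libraries, so 8.33% cannot be read against that rate. Cd68 in PEM-HSC replicate 3 stood at 240 CPM, with 20.6 to 79.6 CPM in the other 5 libraries. Lgmn in the same library stood at 86.6 CPM, with 5.34 to 27.6 CPM in the others. Ctsb was low in PEM-HSC replicate 4, at 574 CPM against 802 to 899 CPM. Tfeb was high in PEM-HSC replicate 1, at 7.82 CPM against 0 to 2.43 CPM. MUL-HSC replicate 1 was low for Gaa, at 11.8 CPM against 38.1 to 41.4 CPM, and high for Npc1, at 26.2 CPM against 2.57 to 5.85 CPM. The 3 PLT-HSC libraries are too few for this test.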

How the results depend on the processing

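The count of lysosome genes called was 0 in all 3 comparisons and under all alternatives but DESeq2 and the fit without PLT-HSC replicate 3. DESeq2 called 1 gene of the list (Cd68) in PLT-HSC against MUL-HSC (adjusted p = 0.00065) and 1 (Cd68) in PEM-HSC against MUL-HSC (adjusted p = 0.00346). Of the other lysosome genes it called 1 (Prcp) and 2 (Prcp and Fuca1), out of 249 and 175 genes in all. Leaving out 1 library, the count in PLT-HSC against MUL-HSC ran from 0 to 1 for the list (Cd68 without PLT-HSC replicate 3, edgeR adjusted p = 0.0349) and from 0 to 1 for the other lysosome genes (Prcp without MUL-HSC replicate 3). The median log2 fold change of the list then ran from 0.017 to 0.39 in PLT-HSC against MUL-HSC, from 0.12 to 0.20 in PEM-HSC against MUL-HSC and from -0.17 to 0.19 in PLT-HSC against PEM-HSC. The log2 fold change of Cd68 kept its sign throughout, at 2.68 to 3.67 in PLT-HSC and 1.76 to 2.70 in PEM-HSC against MUL-HSC over all alternatives, with edgeR, DESeq2 or voom adjusted p from 0.00065 to 0.963 and from 0.00346 to 1. With the replicate number as a block, 0 genes of the list were called and the medians were 0.18 and 0.20 against MUL-HSC. Same-numbered libraries did not deviate together (10 pairs, correlations of -0.13 to 0.05). The spread between libraries could hide a weak pairing, so pairing by number is not excluded. Without both MUL-HSC replicates 1 and 2, chosen after seeing the data, the medians were 0.10 and 0.10, Cd68 stood at 2.99 and 2.30, and 0 genes were called. Other scalings gave medians of 0.25 to 0.27, 0.16 to 0.19 and 0.07 to 0.10. The causes of these shifts were not tested. Tfeb has no value with a filter of 10 CPM. Libraries with few counts limit Tfeb, Lgmn, Gla, Npc1, Ctss and Scarb2, each with at most 4 counts in at least 1 library.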

Other observations

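Markers of 7 further cell types were summed in each library. Neutrophil and monocyte markers ran from 1420 to 1970 CPM in MUL-HSC, 1119 to 1740 CPM in PEM-HSC and 1189 to 2189 CPM in PLT-HSC. Lyz2 and Prtn3 made up nearly all of this sum. Dendritic cell markers ran from 58.8 to 118 CPM, 80.0 to 143 CPM and 81.4 to 128 CPM in the same order, with Siglech and Xcr1 at 0 in all libraries. Markers of T and NK cells ran from 122 to 232 CPM in MUL-HSC, 92.5 to 364 CPM in PEM-HSC and 157 to 376 CPM in PLT-HSC, with Cd3d, Cd3e, Cd3g and Ncr1 at 0. The other two members differed in direction. Klrb1c stood at 0, 0, 30.9 and 0.0483 CPM in MUL-HSC, at 39.2 to 221 CPM in PEM-HSC, all above MUL-HSC, and at 367, 154 and 27.2 CPM in PLT-HSC. Nkg7 had group means of 170, 83.2 and 48.9 CPM in the order MUL-HSC, PEM-HSC, PLT-HSC. Neither was called by edgeR (adjusted p of 0.646 and 0.702 in PLT-HSC against MUL-HSC). Mast cell and basophil markers ran from 68.3 to 182 CPM with Fcer1a, Cma1, Mcpt8, Prss34 and Tpsb2 at 0. Gata2, at 64.7 to 182 CPM, made up most of this sum. Cpa3 was at 0 in all PLT-HSC libraries and at 4.40 to 46.7 CPM in MUL-HSC, and was not called (edgeR adjusted p = 0.241). Of tested genes, 3.04% lay wholly lower in PLT-HSC than in MUL-HSC. Erythroid markers ran from 16.6 to 105 CPM with Hba-a1, Hbb-b1 and Slc4a1 at 0, those of megakaryocytes and platelets from 120 to 281 CPM with Gp6 at 0, and endothelial markers from 71.6 to 217 CPM with Cdh5 at 0. The part of these markers in the levels of the lysosome genes was not tested.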
